A study of Mus musculus with 5 samples.

Results

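The collagen folding and hydroxylation enzymes were taken as 10 genes, Serpinh1, P4ha1, P4ha2, P4ha3, P4hb, Plod1, Plod2, Plod3, P3h1 and Crtap, chosen by name among the 20365 gene names of the deposited tables. All 10 were found, and all 10 had reads in every library. Each gene was represented by its 3′ UTR interval of highest mean deposited CPM over the labeled group, and Serpinh1 served as the reference for the other 9. The cells were cardiac fibroblasts (CF) isolated by collagenase perfusion from hearts of adult healthy male C57Bl/6J wildtype mice and grown to confluency in culture. The labeled group was 3 libraries of CF kept for 12 h with 0.1 mM 4-thiouridine (S4U), and the unlabeled group was 2 libraries of CF kept for 12 h without S4U. RNA of both groups was alkylated with iodoacetamide. CF grown in culture are a model of the fibroblasts in the heart wall, and which animals gave which library is not stated in the sources used here. Where a sentence gives a value for each library, labeled replicates 1, 2 and 3 come first in this order, then unlabeled replicates 1 and 2.

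Cells build S4U into RNA that is made while it is present, and after alkylation the incorporated S4U is sequenced as C. The T>C conversion rate, the share of covered T positions read as C, therefore rises with the part of a transcript pool made during labeling. Fibrillar collagen is folded in the endoplasmic reticulum (ER) by a dedicated set of proteins. Prolyl 4-hydroxylase, a tetramer of catalytic alpha subunits (P4ha1, P4ha2 or P4ha3) and the protein disulfide isomerase P4hb, hydroxylates prolines and so stabilizes the triple helix. The lysyl hydroxylases (Plod1, Plod2 and Plod3) modify lysines that later carry sugars or crosslinks, and Plod2 is known for acting on telopeptide lysines and for its rise in fibrosis. P3h1 and Crtap form, with the cyclophilin Ppib, the prolyl 3-hydroxylation complex. Serpinh1 (HSP47) is a chaperone that binds the folded procollagen helix.

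Between 506045 and 1576048 reads were counted in the labeled libraries on 1 interval per gene, against 1843033 and 996143 in the unlabeled libraries. The T>C conversion rate over all intervals was 3.55% ± 0.0264 (SD, n = 3) in labeled libraries and 0.111% and 0.0652% in the unlabeled ones. Levels are given as CPM of the counted reads. The 8 fibroblast markers summed to between 10558 and 11270 CPM in the 5 libraries, with Dcn as the highest. The 5 endothelial markers summed to between 96.4 and 214 and the 6 immune markers to between 45.0 and 85.4. The 6 cardiomyocyte markers summed to 1.90 to 7.03 and the 5 epicardial markers to 1.63 to 7.90, with Ryr2, Actn2, Msln and Krt19 at 0 reads in every library. The 6 smooth muscle and pericyte markers summed to 563, 1428 and 1652 in the labeled libraries and to 366 and 750 in the unlabeled libraries. Nearly all of that was Acta2, which activated fibroblasts express too, and Myh11 stood at 0 reads in the labeled libraries.

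The reads of the libraries come from the 3′ ends of transcripts, so the sequences counted are ends of 3′ UTRs, with coordinates on mm39. The 30 bases around the poly(A) signal (in capitals) are shown for the 2 members with the highest mean levels, to show which annotated end the interval lies at. Where within the interval the reads ended was not tested.
Serpinh1, chr7:98994600-98994629, minus strand: gtgtgaaagcagATTAAAgaaagaggttcc
P4hb, chr11:120451132-120451161, minus strand: acacattggctaAATAAAgttgaaatttta

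A poly(A) signal of these kinds (AATAAA or ATTAAA) stood in the last 50 bases of the interval in 8 of the 10 members, the exceptions being P4ha1 and Crtap, and in 83.1% of the intervals of 6936 genes on reference chromosomes with at least 10 reads in every labeled library. TATTTAT, the core of AU-rich elements that some RNA decay proteins bind, was searched in the same intervals on the transcribed strand (it contains ATTTA). It is printed for every member that held it. Whether the motif goes along with the T>C conversion rate was not tested. The capitals mark the match.
Plod2, chr9:92489505-92489534, plus strand: gtgaaagttggTATTTATttctgtgcttta
Plod2, chr9:92489634-92489663, plus strand: tgagaaggtttTATTTATcggtgggggaag
P3h1, chr4:119106049-119106078, plus strand: gtcagtcgaacTATTTATttagtgagcacc
Serpinh1, chr7:98995016-98995045, minus strand: atcagtgttcaTATTTATggccaggcattc
P4ha1, chr10:59207740-59207769, plus strand: taacaatgaccTATTTATgatcttaaatct

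P4ha2, P4ha3, P4hb, Plod1, Plod3 and Crtap had no match in their intervals. Plod2 was the member with 2 matches, and 28.8% of 1106 intervals of similar length held at least 1. The share of intervals with 2 matches or more was not counted. For P3h1 the share among intervals of similar length was 21.0%, for Serpinh1 18.7%, and for P4ha1, whose interval of 2230 bases is the longest of the members, 44.7%. The shorter motif ATTTA occurred 8 times in P4ha1, 6 times in Plod2, 3 times in P3h1 and 1 time each in Serpinh1 and P4hb. It is common: 94.1%, 79.7%, 71.8%, 65.9% and 69.6% of the intervals of similar length held it, in the same order. Their median count was 4 for P4ha1, 2 for Plod2 and 1 for each of P3h1, Serpinh1 and P4hb.

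All 10 members were labeled. The T>C conversion rate of every member was raised by labeling (beta-binomial test, adjusted p from 6.74e-06 for Serpinh1 to 0.00551 for Plod3), and 94.5% of 19240 intervals tested passed in the same direction, so the count says nothing particular about collagen folding. What set the members apart from each other was how far the rate rose. Means of the 3 labeled libraries ran from 4.08% for Plod2 down to 0.614% for Crtap. The genes covered deeply enough for a precise rate (1000 T positions or more in each library) numbered 2107, and their median rate was 3.88%, with quartiles of 3.43% and 4.22%. Only 7 members are among these genes, since P4ha3, Plod1 and Crtap had fewer covered T positions and so less precise rates. Of the 10 members, 9 lay below this median and only Plod2 lay above it, at the 65.4th percentile. Plod2, P4ha3 and P3h1 were inside the quartiles, and the other 7 were below the lower quartile.

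**Figure D1:**
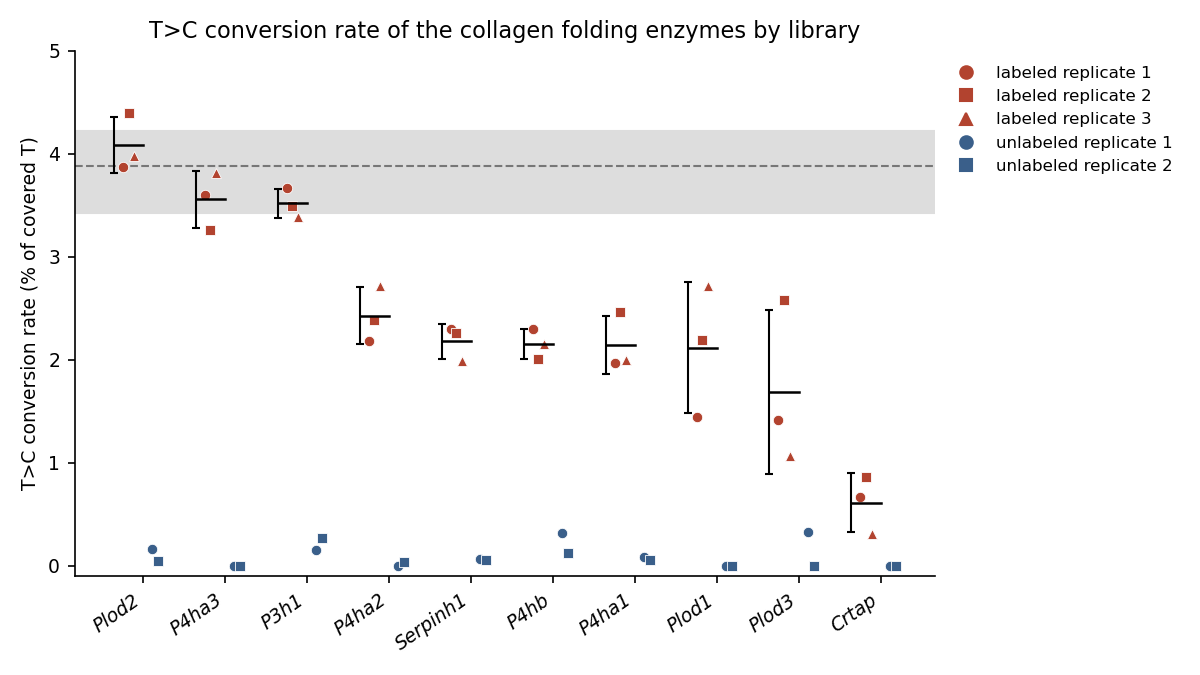
T>C conversion rate (% of covered T positions) of each member in the 3 labeled (red) and 2 unlabeled (blue) libraries, with replicates as symbols, ordered by the labeled mean. Black bars are the labeled mean ± SD (n = 3), the dashed line and grey band are the median and quartiles of 2107 deeply covered genes, and Plod2, P4ha3 and P3h1 lie in the band while Crtap is lowest.

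Serpinh1 was by far the most abundant member. Its interval (ENSMUSG00000070436.14, chr7:98994582-98995326, minus strand) held 4178, 3410 and 1693 reads in labeled and 3813 and 1869 in unlabeled libraries. Most annotated coding transcripts (23 of 26) carry the interval in their last exon, and the farthest annotated end lies 362 bases beyond it. The level was 2950 ± 357 CPM of counted reads in labeled libraries (SD, n = 3), at the 99.7th percentile of 6937 genes with at least 10 reads in every labeled library. The T>C conversion rate was 2.30%, 2.26% and 1.99% in the labeled libraries, against 0.0662% and 0.0605% in the unlabeled libraries. This mean of 2.18% ± 0.170 stood at the 8.88th percentile of the deeply covered genes, so the chaperone combined a very high level with a low rate.

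The level of 8 members could be compared with that of Serpinh1, and all 8 were lower (limma, adjusted p from 5.79e-12 to 1.80e-07), as were 99.7% of 6936 genes tested. P4hb and Plod2 came nearest, at 24.0% ± 7.47 and 23.8% ± 5.83 of the Serpinh1 reads in labeled libraries (SD, n = 3). Crtap was not tested for its level, since labeled replicate 1 held fewer than 10 of its reads. In the order of mean levels, Serpinh1 was above P4hb, Plod2 above P4ha1 and P4ha1 above P3h1 with no overlap of the labeled libraries, while P4hb and Plod2, and all neighbours from P3h1 downwards, overlapped.

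**Figure D2:**
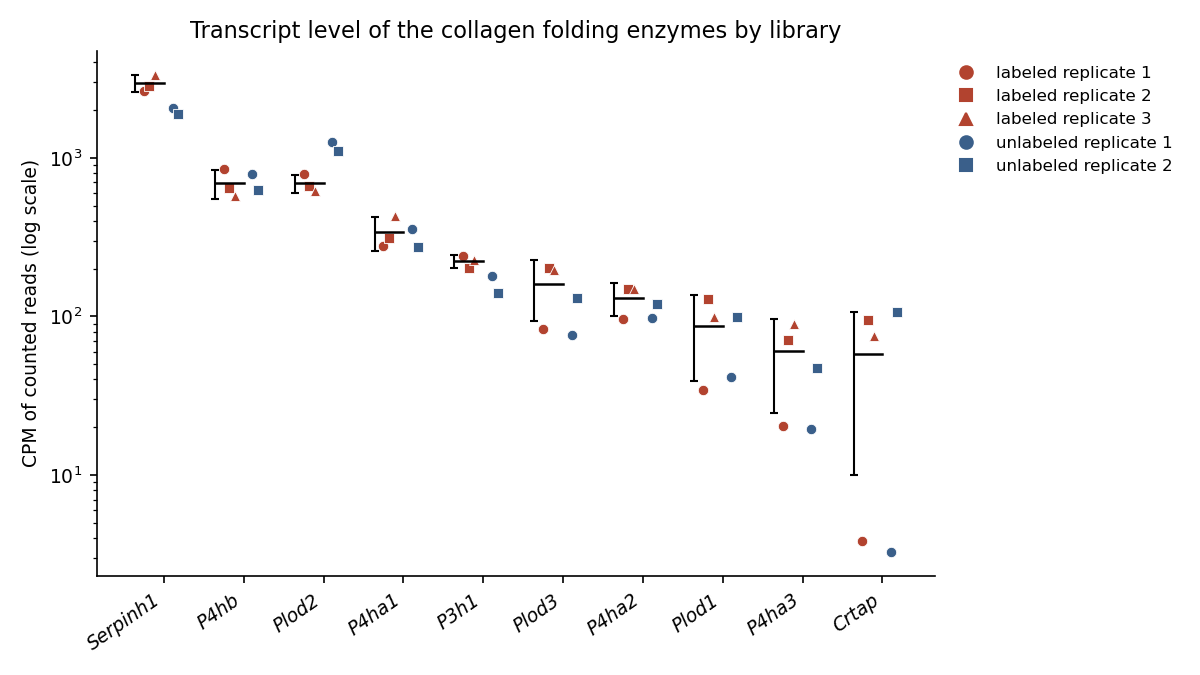
Level of each member in CPM of counted reads (log axis) in the 3 labeled (red) and 2 unlabeled (blue) libraries, with replicates as symbols and black bars for the labeled mean ± SD (n = 3). Serpinh1 lies above all other members in every library, and the replicate 1 libraries of both groups are lowest for P4ha2, P4ha3, Plod1, Plod3 and Crtap.

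Among the catalytic alpha subunits of prolyl 4-hydroxylase, the most abundant form had the lowest mean T>C conversion rate. P4ha1 (ENSMUSG00000019916.16, chr10:59206897-59209126, plus strand) held 437, 372 and 218 reads in labeled and 657 and 272 in unlabeled libraries. Its rate was 1.97%, 2.47% and 1.99% in the labeled libraries. P4ha1 made up 70.4%, 58.5% and 64.5% of the alpha subunit reads in the labeled libraries and 75.2% and 62.0% in the unlabeled libraries. Its interval lies in the last exon of 1 of 11 annotated coding transcripts.

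P4ha2 (ENSMUSG00000018906.16, chr11:54022087-54022494, plus strand), the second alpha form, held 152, 179 and 75 reads in labeled and 181 and 120 in unlabeled libraries. Its rate of 2.18%, 2.39% and 2.72% in the labeled libraries overlapped that of P4ha1. The difference between them, 0.19 log2 odds, had a 95% interval from -0.11 to 0.50.

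P4ha3 (ENSMUSG00000051048.19, chr7:99968188-99968908, plus strand), the least abundant alpha form, held only 32, 85 and 45 reads in labeled and 36 and 47 in unlabeled libraries. Its rate was 3.60%, 3.26% and 3.81%, above every labeled value of P4ha1 and P4ha2. The difference from P4ha1 was 0.77 log2 odds (SE 0.20, adjusted p = 0.000241, limma), and the difference in level was -2.71 on the log2 scale (SE 0.38). The comparisons between pairs of members other than Serpinh1, 9 in all, were chosen after the values were seen, with p adjusted over all genes fitted against the same reference. No conversion was found in 1063 and 816 covered T positions of the unlabeled libraries, which allows a rate of up to 0.282% and 0.368% (3 conversions, counting error only). P4ha3 reads covered 31.3 and 29.5 T positions each in labeled and unlabeled replicate 1 and between 16.9 and 18.8 in the other libraries. Whether the reads lay on the same stretch of the interval in all libraries was not tested.

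P4hb (ENSMUSG00000025130.13, chr11:120451124-120452008, minus strand), which keeps the alpha subunits soluble and is also a general disulfide isomerase, held 1338, 776 and 292 reads in labeled and 1447 and 627 in unlabeled libraries. Its rate was 2.30%, 2.01% and 2.15%, and that of P4ha1 differed from it by -0.013 log2 odds (95% interval -0.25 to 0.23). The alpha subunit reads together came to 46.4%, 82.0% and 116% of the P4hb reads in the labeled libraries and to 60.4% and 70.0% in the unlabeled libraries. The unlabeled background was the highest in absolute terms for P4hb and Plod3 in unlabeled replicate 1, with 0.315% and 0.325% of T positions read as C.

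Plod2 stood apart from the other lysyl hydroxylases. Plod2 (ENSMUSG00000032374.16, chr9:92489284-92490481, plus strand) held 1252, 790 and 311 reads in labeled and 2323 and 1104 in unlabeled libraries. Its rate of 3.87%, 4.40% and 3.98% in the labeled libraries was above every labeled value of the other 9 members. The mean share of its reads with at least 1 conversion was the highest of the members, 58.2% ± 3.60 against 32.8% ± 3.27 for Serpinh1 (SD, n = 3). At nearly the same level as P4hb in labeled libraries (log2 difference 0.01, 95% interval -0.44 to 0.45), Plod2 had a rate 0.95 log2 odds higher (SE 0.11, adjusted p = 1.65e-08, limma). The rate of P3h1 did not pass against that of Plod2, at -0.22 log2 odds (95% interval -0.43 to -0.0093, adjusted p = 0.231).

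Plod1 (ENSMUSG00000019055.17, chr4:147994210-147995175, minus strand), which acts on helical lysines, held 54, 154 and 50 reads in labeled and 76 and 99 in unlabeled libraries. Its rate of 1.45%, 2.19% and 2.71% spread widely around 2.12% ± 0.636, on 622 to 2507 covered T positions. None of its 10 annotated coding transcripts ends within 50 bases of the interval's end, and the farthest annotated end lies 2636 bases beyond it.

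Plod3 (ENSMUSG00000004846.12, chr5:137025116-137025500, plus strand), which also has a glycosyltransferase activity, held 132, 240 and 99 reads in labeled and 140 and 130 in unlabeled libraries. Its rate was 1.41%, 2.58% and 1.06%. Both Plod1 and Plod3 lay below Plod2 in every labeled library, with differences of -0.98 (SE 0.17, adjusted p = 0.000856) and -1.39 log2 odds (SE 0.16, adjusted p = 1.85e-05, limma). Plod1 and Plod3 themselves differed by 0.41 log2 odds, with a 95% interval from -0.57 to 1.38. Plod2 accounted for 87.1%, 66.7% and 67.6% of the Plod reads in the labeled libraries and for 91.5% and 82.8% in the unlabeled libraries.

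The prolyl 3-hydroxylation pair differed widely in rate. P3h1 (ENSMUSG00000028641.18, chr4:119105244-119106174, plus strand), the enzyme, held 380, 240 and 114 reads in labeled and 330 and 140 in unlabeled libraries. Its rate was 3.67%, 3.49% and 3.39%, with the smallest SD of the 10 members relative to its mean (3.52% ± 0.144, n = 3). Crtap (ENSMUSG00000032431.8, chr9:114204199-114204596, minus strand), its non-enzymatic partner, held 6, 114 and 38 reads in labeled and 6 and 106 in unlabeled libraries. Its rate was 0.671%, 0.864% and 0.305% in the labeled libraries, from 1, 25 and 3 conversions. Crtap was below every labeled value of every other member, and its difference from P3h1 was -2.42 log2 odds (SE 0.23, adjusted p = 1.55e-05, limma). Crtap reads were 1.58%, 47.5% and 33.3% of the P3h1 reads in the labeled libraries and 1.82% and 75.7% in the unlabeled libraries, so the gap in level was widest in replicate 1 of both groups.

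Its mean rate of 0.614% ± 0.284 corresponds to the 0.285th percentile of the deeply covered genes, to which Crtap itself does not belong. The unlabeled libraries had no Crtap conversion in 146 and 2669 covered T positions, which allows up to 2.05% and 0.112%, so unlabeled replicate 1 was too shallow to show a background below the labeled rates. Without unlabeled replicate 2, the rise of Crtap in the beta-binomial test was no longer past the threshold (adjusted p = 0.188). The gene 4930520O04Rik lies on the opposite strand over the Crtap interval.

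Crtap was also the member whose reads varied most between libraries of a group. Its level was 3.81, 95.4 and 75.1 CPM in the labeled libraries and 3.26 and 106 in the unlabeled libraries, so the replicate 1 libraries of both groups were low. Of 4846 genes with a mean of at least 50 reads, only Crtap and Rps15 were this low in replicate 1 of both groups (Rps15 was singled out after its values were seen). P4ha3, Plod1, Plod3 and P4ha2 were lower in replicate 1 of both groups too. Their log2 differences were -1.96, -1.72, -1.24 and -0.63 from the mean of labeled replicates 2 and 3. From unlabeled replicate 2 they were -1.27, -1.27, -0.78 and -0.30. In the same order, 68, 127, 268 and 663 of the 4846 genes were as low in both groups. The part of this library difference in the rates of these members was not tested.

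Against Serpinh1 in the same library, 5 of the other 9 members differed in T>C conversion rate, 3 upwards and 2 downwards. Over all 8401 genes tested in this way, 86.7% differed, 83.7% upwards and 3.01% downwards. Plod2 was higher by 0.93 log2 odds (SE 0.10, adjusted p = 5.66e-07), P4ha3 by 0.74 (SE 0.18, adjusted p = 0.000928) and P3h1 by 0.72 (SE 0.11, adjusted p = 2.11e-05), each in all 3 labeled libraries, as were 84.3% of the genes. Crtap was lower in all 3, as were 3.27%, at -1.70 log2 odds (SE 0.21, adjusted p = 1.81e-06). Plod3 was lower at -0.45 (SE 0.17, adjusted p = 0.0180), but it was above Serpinh1 in labeled replicate 2 (2.58% against 2.26%).

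The Plod3 call was lost without labeled replicate 1 (-0.34, adjusted p = 0.0656) or labeled replicate 3 (-0.24, adjusted p = 0.0575), and it grew without labeled replicate 2 (-0.78, adjusted p = 0.00209). All adjusted p-values of this comparison are from limma with Benjamini-Hochberg adjustment over all genes tested, and every difference shares the sampling error of Serpinh1.

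The other 4 members, P4ha1, P4ha2, P4hb and Plod1, did not pass the test. Their differences from Serpinh1 were -0.03 log2 odds (95% interval -0.25 to 0.20) for P4ha1, 0.16 (-0.11 to 0.44) for P4ha2, -0.02 (-0.23 to 0.20) for P4hb and -0.05 (-0.45 to 0.35) for Plod1. In the order of the means, P4ha2, Serpinh1, P4hb, P4ha1, Plod1 and Plod3 followed each other with overlapping labeled libraries, and so did P4ha3 and P3h1. Plod2 against P4ha3, P3h1 against P4ha2 and Plod3 against Crtap were the steps at which neighbours did not overlap.

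A rate per T position and a share of reads with a conversion weigh reads differently, because the members' reads cover between 11.5 (Plod1) and 31.3 (P4ha3) T positions each, as means of single libraries. Counted as the share of reads with a conversion, P4hb also fell below Serpinh1 (-0.56, adjusted p = 0.0416, limma) and P4ha3 no longer passed (0.64, adjusted p = 0.119). Plod2 was above Serpinh1 by this measure too (1.52). Log2 odds of a share of reads and of a rate per T position are on different scales, so their sizes cannot be compared.

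**Figure D3:**
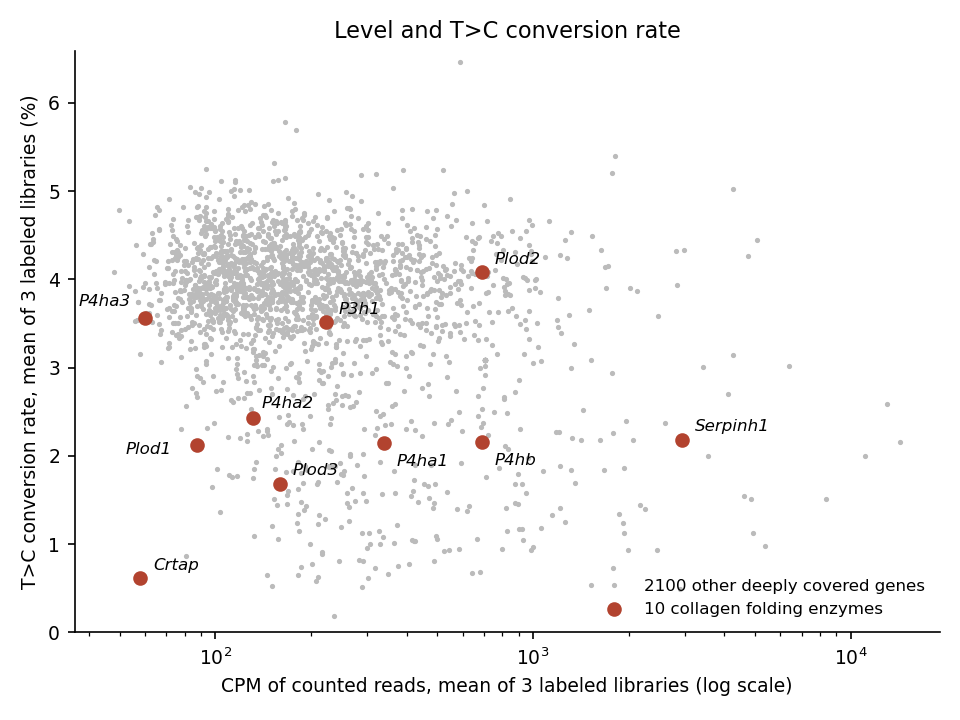
Mean level (CPM of counted reads, log axis) and mean T>C conversion rate (%) of 3 labeled libraries for the 10 members (red, named) and 2100 deeply covered genes outside the members (grey). Most grey points lie between 3% and 5%, with Plod2 and P3h1 among them, while Serpinh1, P4hb and P4ha1 lie near 2% at different levels and Crtap lies below 1%.

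The read counts of labeled and unlabeled libraries asked whether the 12 h with S4U went along with a change of transcript level. No member passed edgeR's test, and neither did any of the 9807 genes tested (0.0% called). This changed with the replicate number fitted as a block, which the labels do not tie to a shared preparation. Serpinh1, P3h1 and Plod2 then passed, beside 11.7% of the genes. At an unadjusted p below 0.05 edgeR's test had 279 genes higher and 306 lower, and DESeq2 called 20 genes, none of them a member. In bulk RNA, fewer cells and less RNA per cell cannot be told apart.

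Serpinh1 had 2651, 2854 and 3346 CPM in the labeled libraries and 2069 and 1876 in the unlabeled libraries, so every labeled library lay above both unlabeled ones. The fitted log2 fold change was 0.66 (SE 0.25, adjusted p = 0.773, edgeR). P3h1 had the same arrangement, 241, 201 and 225 against 179 and 141 CPM, with a log2 fold change of 0.56 (SE 0.24, adjusted p = 0.856). Of the 9807 genes, 8.15% had every labeled library above both unlabeled ones.

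Plod2 was the member with the opposite arrangement. Its level was 794, 661 and 615 CPM in the labeled libraries and 1260 and 1108 in the unlabeled libraries. All 3 labeled libraries were lower, as in 13.0% of the genes, and the log2 fold change was -0.70 (SE 0.23, adjusted p = 0.725, edgeR). The remaining 7 members overlapped between the groups, with log2 fold changes from 0.05 for P4hb to 0.91 for P4ha3. With 3 libraries against 2, an exact permutation test of a single gene cannot go below p = 0.1.

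Set against Serpinh1, the gap of Plod2 was wider. Plod2 reads were 29.97%, 23.2% and 18.4% of the Serpinh1 reads in the labeled libraries and 60.9% and 59.1% in the unlabeled libraries. The change of this ratio was -1.36 on the log2 scale (SE 0.32, 95% interval -2.08 to -0.64, unadjusted p = 0.00232), and its adjusted p in limma was 0.204, so it did not pass. No member and none of the 9806 genes passed (0.0% called), although at an unadjusted p below 0.05 there were 1944 lower and 41 higher. With the replicate number as a block, Plod2 and P4ha1 passed, beside 36.4% of these genes. Against P4hb the ratio of Plod2 reads was 0.936, 1.02 and 1.07 in the labeled libraries and 1.61 and 1.76 in the unlabeled libraries. The groups did not overlap in this ratio, but the share of all genes without overlap against P4hb was not counted. The summed smooth muscle and pericyte markers were higher in the labeled than in the unlabeled library for replicate numbers 1 and 2, but labeled replicate 1 was below unlabeled replicate 2, and their part in these differences was not tested.

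**Figure D4:**
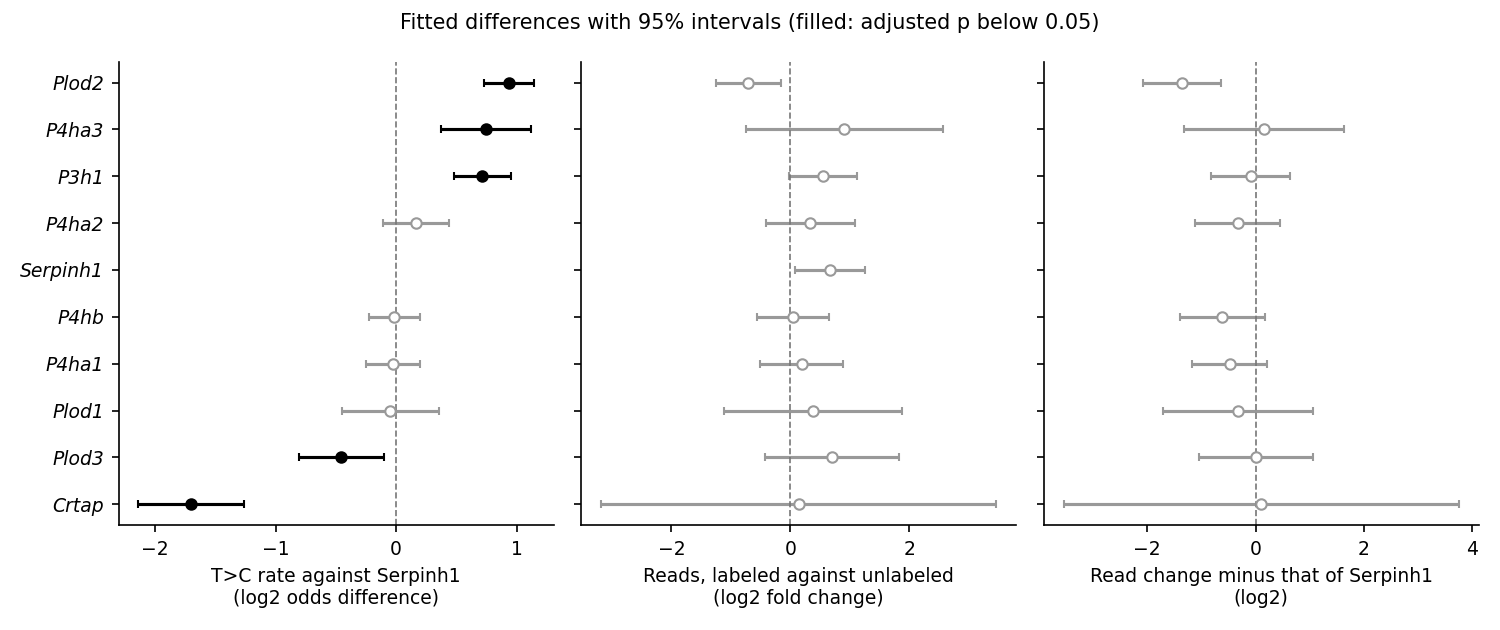
Fitted differences of the members with 95% intervals: T>C conversion rate against Serpinh1 (log2 odds, limma, 3 labeled libraries), reads in labeled against unlabeled libraries (log2 fold change, edgeR) and read change minus that of Serpinh1 (log2, limma). Filled points had an adjusted p below 0.05, which 5 members reached for the rate and none for the reads, and Serpinh1 is the reference of the outer panels.

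A list of 10 collagen chains, of types I, III, IV, V and VI, had a median rate of 2.09%, against the 3.88% of the deeply covered genes. The rates of these chains, which are among the proteins that the members modify, ran from 0.926% for Col6a1 to 2.70% for Col4a1. Col1a1, at 13036 ± 270 CPM the highest of them (SD, n = 3), had a rate of 2.59% ± 0.199. Col1a2 had 1.998% ± 0.0741 and Col3a1 1.51% ± 0.143. Chains outside the list went beyond its range: Col8a1 and Col15a1 had a higher mean rate than Col4a1, and Col14a1 had a lower one than Col6a1. Against Serpinh1, 3 of 10 chains were higher (Col1a1, Col4a1 and Col5a1) and 4 lower (Col3a1, Col4a2, Col6a1 and Col6a2). The chains summed to between 39233 and 43615 CPM in labeled libraries and to 30434 and 35728 in the unlabeled libraries. Serpinh1 and P3h1 also had this order, as did 8.15% of 9807 genes taken singly. That share is no background for a sum of 10 chains, and the single chains with this order were not counted. Col1a1 and Col1a2, the most abundant of the 10 chains, had the largest log2 fold changes among them (0.57 and 0.51). Col3a1 had 0.14, and Col6a3 was the only chain of the 10 with a negative value (-0.17). None of the 10 chains passed edgeR's test for reads, and their median log2 fold change was 0.18 beside 0.02 over all genes.

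The 15 other collagen folding and ER cycling genes were spread more widely. Against Serpinh1, 8 of 14 tested were higher and 4 lower. Kdelr3, a receptor that returns ER proteins from the Golgi, was highest at 4.82% of the 13 genes with enough reads for a rate, and Fkbp9, a prolyl isomerase of the ER, lowest at 1.06%. Ppib, the third protein of the P3h1 and Crtap complex, had 1.15% ± 0.157 at 184 ± 44.0 CPM, so Crtap and Ppib were both below P3h1 in rate. Of 14 tested for reads, 12 had a positive log2 fold change and none passed, with a median of 0.43.

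The 12 general ER chaperones had a median rate of 2.64% over the 11 with enough reads, from 0.785% for Pdia4, a disulfide isomerase, to 4.24% for Hspa5 (BiP), the main ER chaperone. Here 8 of 12 were higher than Serpinh1 and 2 lower. The hypoxia targets, a group that shares regulation with P4ha1 and Plod2 in many cells, had a median of 3.91% over the 7 with enough reads, and 8 of 8 tested were higher than Serpinh1. Of the hypoxia targets 3 of 9 tested for reads had a positive log2 fold change, with a median of -0.32 and no call. The other 2-oxoglutarate hydroxylases, related to the members by mechanism and not by collagen, had a median of 3.77% over 5 genes, with 5 of 7 tested above Serpinh1 and none below. These counts stand beside the 83.7% higher and 3.01% lower of all genes.

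Over the 5 libraries, the level of Serpinh1 was followed most closely by Slc6a6, Gm10157 and Ikbip among 932 genes with at least 100 reads in every library, with root mean square differences of the centred log2 levels of 0.06, 0.08 and 0.09. P3h1 was 34th in this order at 0.17, P4ha1 150th at 0.27, P4hb 458th at 0.42 and Plod2 818th at 0.70, and the remaining 5 members did not have enough reads.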

How the data were processed

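Cardiac fibroblast libraries (3 labeled, 2 unlabeled) were grouped by the submitters' labels. Reads were mapped by the authors with SLAM-DUNK 0.4.3 to mm39, deduplicated by UMI with umi-tools and counted on 3′ UTR intervals. The authors deposited raw counts of reads, reads with a conversion, covered T positions and conversions. Their deposited T>C conversion rate is the fraction of conversions per covered T position. The deposited CPM was divided by a total larger than the counted reads, so it was used only to choose intervals, and levels are given as CPM of the counted reads. Reads of 3′ end libraries were compared between genes without division by length.

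Each table has 97442 rows with 40428 distinct intervals, and repeated rows were used once. Overlapping intervals of a gene share reads, so 1 interval per gene was used. The T content of 40380 of 40380 intervals on reference chromosomes matched GRCm39, from which sequences and the annotation were read. Intervals of similar length for the motif shares were those of genes with at least 10 reads in every labeled library.

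A two-sided beta-binomial likelihood-ratio test of labeled against unlabeled libraries was used for the T>C conversion rate (at least 1 covered T in every library). For reads, the quasi-likelihood test of edgeR was used (TMM, filterByExpr). Rates (at least 100 covered T positions in every labeled library), levels (at least 10 reads in every labeled library) and read changes relative to Serpinh1 were fitted with limma on log2 odds or log2 ratios taken within a library, with a pseudocount of 0.5. All p-values were Benjamini-Hochberg adjusted over all intervals or genes tested, with a threshold of 0.05. The prior variance of limma was trended on depth, a choice made when the scripts were tested on simulated data, and the fit without the trend is an alternative. An exact test over 3 paired differences cannot go below p = 0.25. The p-values rest on the spread between these libraries. In limma and edgeR the variance of a gene is partly borrowed from all genes fitted. An SE can therefore be smaller or larger than the spread of the gene's own libraries would give. Depth limits the precision: the members had between 6 and 4178 reads in a library, and limits for 0 conversions and the intervals of the fits cover counting error or the fitted spread only.

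The genes named were the 10 members, Col1a1, Col1a2 and Col3a1, the highest and lowest gene of each list in rate or level, and the 3 genes whose level was most like that of Serpinh1. Genes named outside this rule are the chains called against Serpinh1, Col8a1, Col15a1, Col14a1, Ppib, Rps15 and marker genes at 0 reads. All of these were chosen after their values were seen. The members and the lists were chosen with earlier results of these data known. Alternatives were other thresholds, scalings, filters, pseudocounts and interval sums, DESeq2, the replicate block and each library left out. The fits ran in DESeq2 1.42.0, limma 3.58.1 and edgeR 4.0.16 under R 4.3.3, and the rest in Python 3.11.15 with pandas 2.3.3, scipy 1.17.1, numba 0.67.0, numpy 2.4.6 and matplotlib 3.10.9.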

Additional observations from a re-analysis of the deposited data

How the results depend on the processing

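The 10 members with a raised T>C conversion rate stayed 10 with other thresholds, limma or 1 interval per gene, were 7 of 7 tested with at least 1000 covered T positions, and were 9 to 10 with a library left out. The 5 members that differed from Serpinh1 in rate were between 3 and 5 throughout, 3 of 6 tested with at least 1000 covered T positions, where P4ha3, Plod1 and Crtap were not tested, and 4 to 5 with a library left out. The Plod3 call was lost on a linear scale (adjusted p = 0.145), with intervals summed (0.0649) and without the depth trend of limma (0.111), and with the share of reads the P4ha3 call was lost and a P4hb call gained. Levels below that of Serpinh1 were 8 or 9 of all tested under every alternative run.

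Same-numbered labeled and unlabeled libraries share only a number in the labels. With the replicate number as a block (replicate block), edgeR called 3 members for reads, Serpinh1 (0.53, adjusted p = 0.00660), P3h1 (0.52, 0.0147) and Plod2 (-0.65, 0.000421), beside 11.7% of 9807 genes. limma with the replicate block called 2 members for the read change against Serpinh1, Plod2 (-1.19, 2.6e-05) and P4ha1 (-0.57, 0.0320), beside 36.4% of 9806 genes. The deviations of the replicate 1 libraries correlated at 0.85 and those of the replicate 2 libraries at 0.73 over 6859 genes, but labeled replicate 3 correlated with unlabeled replicate 2 at 0.60 too. The deviations of the 2 unlabeled libraries from their mean are exact opposites, so all these correlations rest on the same unlabeled contrast. They are not separate evidence that a number marks a shared preparation. The edgeR fit had 1 residual degree of freedom.

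Signs that turned belonged to values that passed no test under either setting. For reads these were P4hb with library totals only (-0.032) and P4ha1 (-0.049) and Crtap (-0.0997) with the replicate block. With 1 library left out, the log2 fold changes ran from -0.022 to 0.34 for P4ha1, -0.11 to 0.16 for P4hb, -0.17 to 1.202 for Plod1, 0.34 to 1.71 for P4ha3, 0.32 to 1.198 for Plod3 and -0.87 to 4.22 for Crtap. For the rate it was P4ha1 as a share of reads (0.012), and with 1 library left out the log2 odds against Serpinh1 ran from -0.11 to 0.071 for P4ha1, -0.084 to 0.063 for P4hb and -0.32 to 0.23 for Plod1. For the read change against Serpinh1 they were P4ha3 (-0.16), Plod3 (-0.10) and Crtap (-0.45) with the replicate block, and with 1 library left out the range was -0.55 to 0.86 for P4ha3, -1.03 to 0.38 for Plod1, -0.46 to 0.46 for Plod3, -0.23 to 0.011 for P3h1 and -2.43 to 2.64 for Crtap. The cause was not tested, and Crtap rests on 6 reads in replicate 1 of both groups. Of the values under an alternative, 423 kept their direction and their side of the threshold, 7 lost a call, 6 gained a call and 30 turned in sign.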
